A study of Homo sapiens with 6 samples.

Results

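The SOCS family comprises 8 genes, CISH and SOCS1 to SOCS7, and ChIP-seq peaks of PLAG1-S and USF2 were collected here wherever they lay inside these genes or within 3 kb of either gene end on hg38. Of the 81170 peaks in the 4 lists, 38 met this rule, and the 8 genes were compared with all 20033 protein-coding genes of the RefSeq table (GRCh38.p14). Chromatin came from K562, an established line derived from chronic myelogenous leukemia that carries the BCR-ABL1 fusion kinase, in which Flag-PLAG1-S and USF2 were overexpressed together, and each of the clones, Clone# 4 and Clone# 5, is a single line with both transgenes on one vector. PLAG1-S, a translational isoform of the zinc-finger factor PLAG1, was pulled down with an anti-Flag antibody, and USF2, a basic helix-loop-helix leucine zipper factor that binds E-boxes, was pulled down with its own antibody. Each of the 4 immunoprecipitations was labelled with 42.5 M single-end reads of 50 bp. Each was compared with merged inputs of the same clones, themselves labelled with 55 M reads each. No untransduced or single-transgene K562 cells were analysed here, so all values describe cells that carry both transgenes.

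SOCS proteins brake cytokine signalling. A cytokine receptor activates Janus kinases, these phosphorylate STAT transcription factors, and the STATs switch on genes that include CISH, SOCS1, SOCS2 and SOCS3, whose products act back on the receptor complex. Each member has an SH2 domain that docks on phosphotyrosine and a SOCS box that recruits elongin B, elongin C and the scaffold cullin-5 to form a ubiquitin ligase, and SOCS1 and SOCS3 also carry a short region that inhibits the kinase directly. In K562 cells the fusion kinase keeps STAT5 active, and CISH and SOCS2 are textbook STAT5 target genes.

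Bases directly upstream of the start were read for CISH, SOCS1, SOCS6 and SOCS4 from the RefSeq promoter table (GRCh38.p14). PLAG1-S peaks sat at or just inside the starts of the first 3 genes, and no peak of either factor lay near the last. Each line gives 250 bases, 5′ to 3′ on the gene's own strand and ending at the base before the listed start, as chr3:50611775-50612024 on the minus strand for CISH, chr16:11256205-11256454 on the minus strand for SOCS1, chr18:70288795-70289044 on the plus strand for SOCS6 and chr14:55026986-55027235 on the plus strand for SOCS4. Capitals mark every base that belongs to a match on either strand of GGGCCCC, of a bipartite G-rich element (GGGGC or GAGGC followed after 6, 7 or 8 bases by GGG), of the E-box CACGTG or of the STAT-type element TTCNNNGAA. The last motif was added after the sequences had been seen.
CISH: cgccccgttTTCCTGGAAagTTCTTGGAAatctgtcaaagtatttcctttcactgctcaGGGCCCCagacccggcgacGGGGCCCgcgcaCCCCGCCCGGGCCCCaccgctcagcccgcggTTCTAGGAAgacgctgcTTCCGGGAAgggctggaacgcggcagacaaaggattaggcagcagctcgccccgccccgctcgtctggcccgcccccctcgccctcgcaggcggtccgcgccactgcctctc
SOCS1: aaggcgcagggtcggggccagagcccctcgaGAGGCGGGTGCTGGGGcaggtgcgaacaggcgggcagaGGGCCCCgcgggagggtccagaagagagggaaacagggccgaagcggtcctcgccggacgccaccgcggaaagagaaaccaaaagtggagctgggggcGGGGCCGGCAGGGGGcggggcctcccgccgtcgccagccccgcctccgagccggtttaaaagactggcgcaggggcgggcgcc
SOCS6: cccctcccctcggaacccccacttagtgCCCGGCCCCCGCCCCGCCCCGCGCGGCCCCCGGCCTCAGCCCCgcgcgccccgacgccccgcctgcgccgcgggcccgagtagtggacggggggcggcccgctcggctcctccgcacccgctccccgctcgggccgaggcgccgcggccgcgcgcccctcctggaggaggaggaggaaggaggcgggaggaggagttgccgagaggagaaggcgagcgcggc
SOCS4: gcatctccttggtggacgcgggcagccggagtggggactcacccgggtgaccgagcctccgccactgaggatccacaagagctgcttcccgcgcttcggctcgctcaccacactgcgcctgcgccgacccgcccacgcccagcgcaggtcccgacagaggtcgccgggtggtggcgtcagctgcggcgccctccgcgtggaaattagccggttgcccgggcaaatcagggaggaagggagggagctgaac
CISH held 3 matches of GGGCCCC, at 191 to 185, 172 to 166 and 152 to 146 bp before the start, and the last of these overlapped a bipartite match. GGGCCCC occurred in 10.7% of all 35116 listed promoters of 300 bp, and at least 3 matches in 0.384% of them. The same promoter held 4 matches of TTCNNNGAA, at 241 to 233, 230 to 222, 129 to 121 and 112 to 104 bp before the start, a number reached by 7 of the listed promoters, while 1 or more matches occurred in 7.66%. SOCS1 held 1 match of GGGCCCC and 2 bipartite matches, and SOCS6 held 4 overlapping bipartite matches, which 2.17% of promoters reached or exceeded. SOCS4 held none of these, and neither did SOCS3 at either of its listed starts. Bipartite matches occurred in 32.2% of all listed promoters and in 55.1% of the 7784 that carried a PLAG1-S peak found in both clones. No listed promoter of the family held CACGTG, which occurred in 7.26% of all promoters and in 65.5% of the 1270 with a USF2 peak found in both clones. SOCS2, SOCS5 and SOCS7 have no listed promoter and are named only, without sequence. SOCS2 and SOCS5 are the members with a USF2 peak found in both clones, so the search for CACGTG covered no such peak of the family. At CISH the PLAG1-S peaks of both clones covered the marked bases. At SOCS1 only the clone 5 peak did, since the clone 4 peak nearest the start ended at position 11256226. At SOCS6 no PLAG1-S peak reached the printed bases, since the peaks began at positions 70289101 and 70289113. A match is a string of letters in this window and was not tested as a binding site.

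PLAG1-S was found at 7 of the 8 family genes in both clones, and USF2 at 2 of them, SOCS2 and SOCS5, where both factors peaked at the same position. A peak is called reproducible here where the clone 4 and clone 5 peaks of a factor overlap by at least 1 bp, and co-bound where a reproducible PLAG1-S peak lies within 100 bp of a reproducible USF2 peak. The background was broad, since 52.0% of all coding genes had a reproducible PLAG1-S peak by the same window, 10.3% a reproducible USF2 peak and 9.98% a co-bound peak. In the separate lists, PLAG1-S reached the same 7 members in clone 4 and in clone 5, where 64.0% and 58.3% of coding genes were reached. USF2 reached 4 members in clone 4 (SOCS1, SOCS2, SOCS3 and SOCS5), against 25.3% of coding genes, and 2 members in clone 5, against 13.6%. With 8 genes and these backgrounds the counts are a description, and nothing particular to the family is drawn from them. With 2 clones per factor an unpaired exact two-sided permutation test of the factors cannot go below a p of 0.333. Between the clones of a factor a single library stands against a single library, which allows no such test. Differences between libraries are therefore given with counting intervals and without a test.

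**Figure D1:**
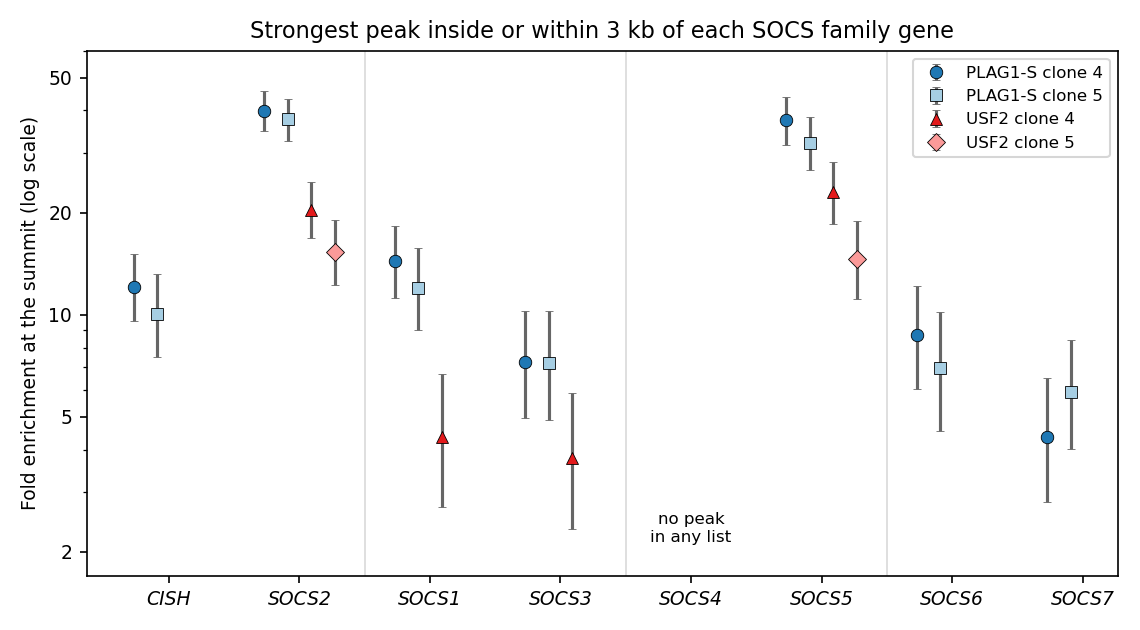
Fold enrichment at the summit (log scale) of the strongest peak inside or within 3 kb of each SOCS family gene in the 4 lists, with exact Poisson 95% intervals on the fragments at the summit as bars. SOCS2 and SOCS5 stand above the other members in every list, and SOCS4 has no peak.

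SOCS2, a brake on growth hormone signalling and a STAT5 target, carried one of the 2 strongest PLAG1-S peaks of the family in both clones. The gene spans chr12:93569969-93626236, and the peak covered chr12:93570383-93571324 in clone 4 and chr12:93570396-93571395 in clone 5. Fold enrichment is the authors' ratio of fragments at the summit to the local background, with 1 added to both. The PLAG1-S fold was 39.9 in clone 4 (216 fragments, 95% interval 34.8 to 45.6) and 37.7 in clone 5 (192 fragments, 32.5 to 43.3). These intervals overlapped, and they cover counting error only. The USF2 fold was 20.4 in clone 4 (110 fragments, 16.8 to 24.5) and 15.4 in clone 5 (80 fragments, 12.2 to 19.1). The USF2 fold was thus below the PLAG1-S fold in both clones, with no overlap of intervals. The factors were pulled down with different antibodies, so these folds do not compare amounts of bound protein.

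The 4 SOCS2 summits lay within 24 bp of each other, 905 to 929 bp inside the low-coordinate end of the gene. The same bases belong to the lncRNA SOCS2-AS1, which overlaps SOCS2 by 1430 bp, so that the peak cannot be assigned to one of these genes from position. Weaker PLAG1-S peaks flanked the main one on both sides in both clones. On the low-coordinate side the fold was 4.01 in clone 4 and 4.43 in clone 5, and on the high-coordinate side it was 5.22 and 4.40. USF2 had no peak at either flank. The recovered local background was 6.98 and 7.12 fragments at the low-coordinate flank and 4.44 and 4.13 at the main summit.

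SOCS5, an adaptor of the ligase known for its action on EGF receptor and interleukin-4 signalling, carried the other shared peak. The gene spans chr2:46698937-46763129, and the PLAG1-S peak straddled its low-coordinate end, at chr2:46698404-46699702 in clone 4 and chr2:46698442-46699164 in clone 5. The PLAG1-S fold was 37.5 in clone 4 (149 fragments, 31.7 to 44.0) and 32.2 in clone 5 (121 fragments, 26.7 to 38.4). The USF2 fold was 22.9 in clone 4 (91 fragments, 18.5 to 28.1) and 14.6 in clone 5 (56 fragments, 11.1 to 18.9). Within each factor the intervals of the clones overlapped, for USF2 only at their edges.

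All 4 SOCS5 summits lay 70 to 79 bp outside the gene end and within 9 bp of each other, and the clone 4 summits of PLAG1-S and USF2 were 1 bp apart. No other gene of the table lay within 3 kb of the SOCS5 peaks, unlike at SOCS2. A weaker PLAG1-S peak with a fold of 4.83 was called separately in clone 5, 609 bp inside the gene. In clone 4 these bases fell within the main peak, which at 1299 bp was among the widest 0.814% of its list.

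SOCS2 and SOCS5 were close to each other in strength and apart from the other members. In each of the 4 lists their intervals overlapped. As deposited, SOCS2 was the higher in both PLAG1-S lists and in the clone 5 USF2 list, and SOCS5 in the clone 4 USF2 list. Without the added 1 this order turned in the clone 4 PLAG1-S list (48.7 at SOCS2 against 49.6 at SOCS5) and in the clone 5 USF2 list (18.7 against 19.3). By their strongest PLAG1-S peak SOCS2 ranked 124 and SOCS5 184 of the 12830 coding genes with a peak in clone 4, and 83 and 189 of 11682 in clone 5. By USF2 they ranked 169 and 120 of 5063 genes in clone 4, and 171 and 191 of 2729 in clone 5. The next member by PLAG1-S, SOCS1, ranked 2266 and 2103.

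The balance between the factors at SOCS2 and SOCS5 was set against that at all 2109 co-bound peaks. The clone 4 ratio of PLAG1-S fold to USF2 fold was 1.96 at SOCS2 and 1.63 at SOCS5, against a median of 2.21 over all co-bound peaks (quartiles 1.73 to 2.75). SOCS2 was inside this range and SOCS5 just under it. The distance between the clone 4 summits of both factors was 16 bp at SOCS2 and 1 bp at SOCS5, with a median of 15 bp over all co-bound peaks. By fold, SOCS2 ranked 86 and SOCS5 131 among these peaks for PLAG1-S, and 127 and 87 for USF2. These ratios compare libraries made with different antibodies and give an order among sites, not amounts of bound protein.

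SOCS1, the inhibitor of interferon-γ signalling, carried PLAG1-S over much of a short gene (chr16:11254417-11256204, 1788 bp). In clone 4 the fold was 14.4 at the stronger peak (65 fragments, 11.2 to 18.3), 8.20 at a second peak nearer the start (38 fragments) and 4.61 at another, 2583 bp upstream of the start (19 fragments). In clone 5 a single peak of 1786 bp, at chr16:11254716-11256501, covered the first 2 of these with a fold of 12.0 (51 fragments, 9.0 to 15.7), and the upstream peak was not called. The strongest summits of the clones were 8 bp apart, 965 and 957 bp downstream of the listed start. USF2 had a peak at SOCS1 in clone 4 alone, with a fold of 4.36 (19 fragments, 2.71 to 6.68) and its summit 31 bp from that of PLAG1-S. This fold was below the median of 4.80 for the strongest USF2 peak of a coding gene in that list. The lncRNA LOC105371082 contains the whole of SOCS1.

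SOCS3, which dampens interleukin-6 and leptin receptor signalling, carried many weak peaks. It had 5 PLAG1-S peaks within 3 kb in clone 4 and 4 in clone 5, and 7.20% of coding genes had 5 or more in the clone 4 list. The gene spans chr17:78356778-78360925. The strongest fold was 7.25 in clone 4 (30 fragments, 4.97 to 10.2) and 7.19 in clone 5 (29 fragments, 4.89 to 10.2), near the medians of 7.11 and 6.42 for the strongest peak of a coding gene. The strongest summits were 595 bp apart, and the clone 4 peak of 1236 bp reached over 2 clone 5 peaks, with folds of 7.19 and 5.20. The remaining folds were 4.21 to 4.57 in clone 4 and 4.75 and 4.93 in clone 5. USF2 was called in clone 4 alone, with folds of 3.04 (16 fragments) and 3.79 (18 fragments). Both were under the median of 4.80 named above. SOCS3-DT, a divergent lncRNA, overlaps the start of SOCS3 by 478 bp. Another lncRNA, LOC124904064, lay within 3 kb of the PLAG1-S peak with the lowest coordinates in each clone.

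**Figure D2:**
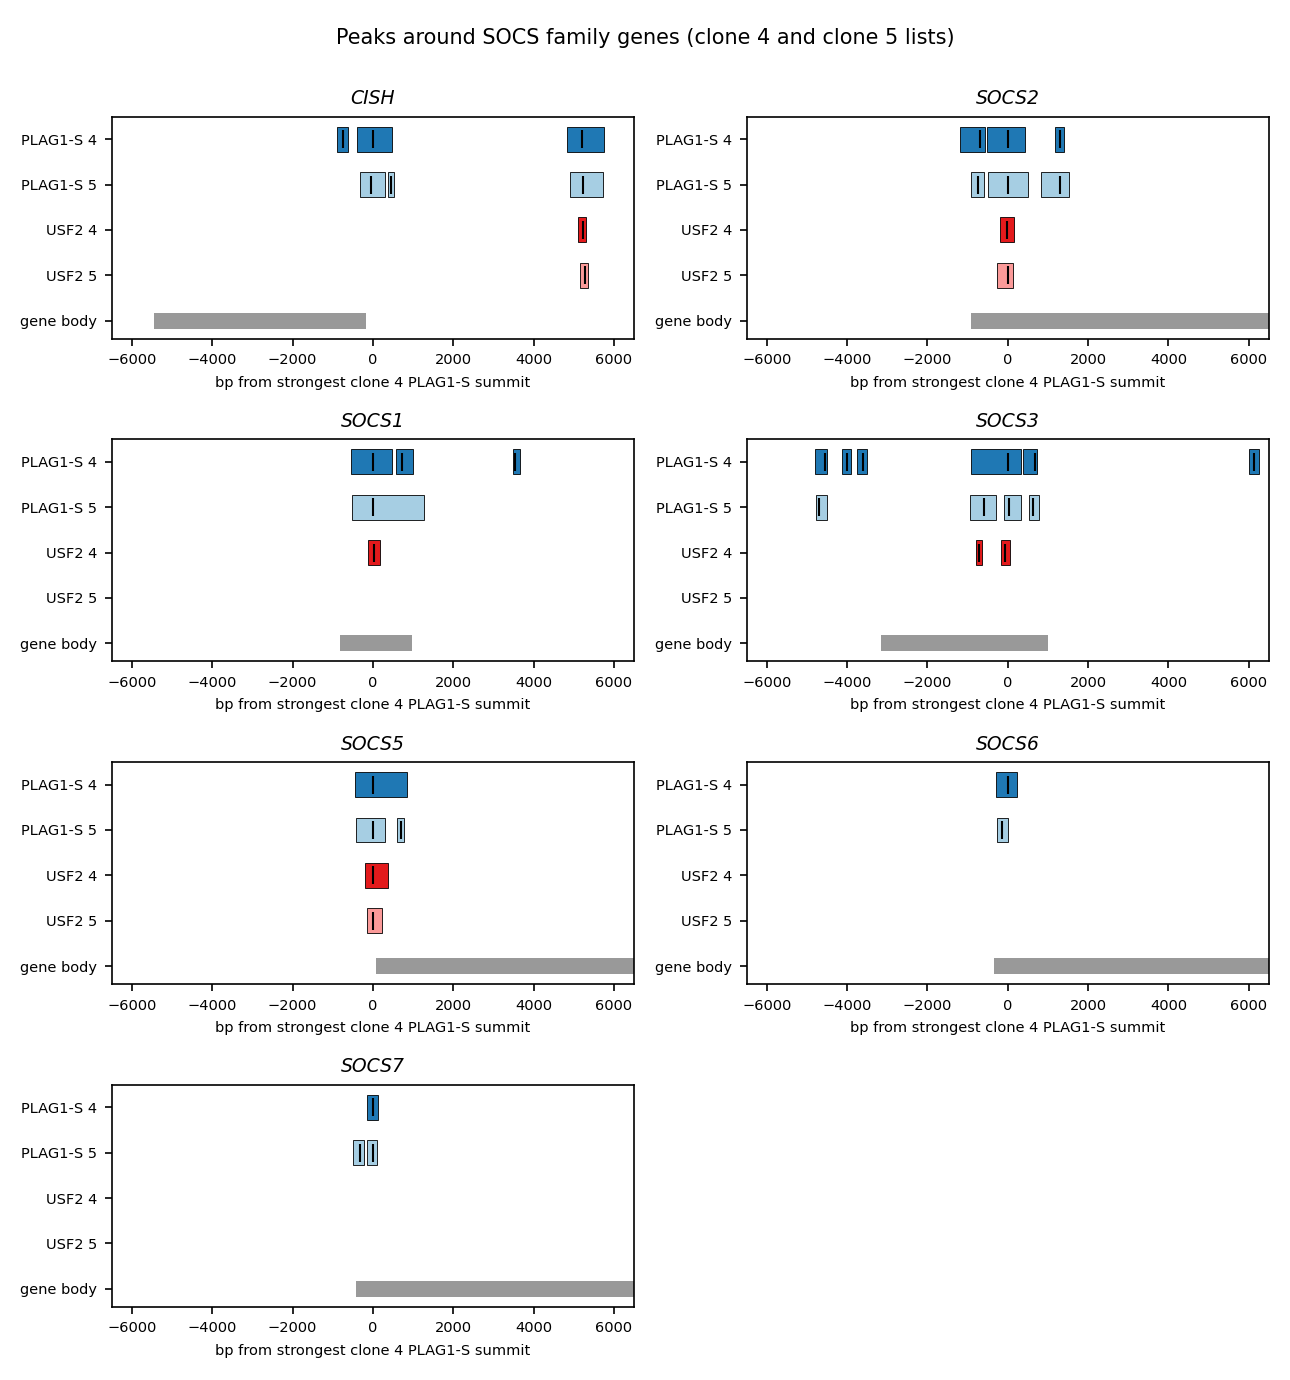
Peaks around the 7 SOCS family genes that have one, drawn as boxes with the summit as a tick, against the distance in bp from the strongest clone 4 PLAG1-S summit (rows named by factor and clone, gene body in grey, cut at the panel edge). The 4 summits align at SOCS2 and SOCS5, SOCS3 shows many small boxes, and at CISH the USF2 boxes lie about 5 kb to the right of the gene.

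CISH, the founding member and a STAT5 target, carried PLAG1-S directly upstream of its start without USF2. The gene spans chr3:50606489-50611774 on the minus strand. The PLAG1-S fold was 12.1 in clone 4 (76 fragments, 9.56 to 15.1) and 10.1 in clone 5 (50 fragments, 7.52 to 13.2), with overlapping intervals. The summits lay 167 bp upstream of the listed start in clone 4, within the middle GGGCCCC of the sequence printed above, and 118 bp upstream in clone 5, between the matches of TTCNNNGAA at 129 to 121 and 112 to 104 bp. The summits were thus 49 bp apart, against a median of 32 bp over all PLAG1-S peaks shared by the clones. Weaker peaks with folds of 4.50 in clone 4 and 4.44 in clone 5 lay at different positions, 588 bp downstream and 626 bp upstream of the start.

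MAPKAPK3, a kinase downstream of p38, shares this start region. Its body overlaps CISH by 255 bp, and its first listed start, at position 50611877 on the plus strand, lay 64 bp before the clone 4 summit and 15 bp before the clone 5 summit, so that the peak cannot be assigned to CISH or MAPKAPK3 from position. A stronger peak that both factors shared lay 5382 bp upstream of CISH, at chr3:50616785-50617684, and its summit was 5 bp from the second listed start of MAPKAPK3. There the PLAG1-S fold was 21.2 in clone 4 and 18.7 in clone 5, and the USF2 fold was 8.19 and 4.19. This site was outside the 3 kb window of CISH.

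SOCS6, which binds the receptor kinase KIT, carried a single PLAG1-S peak just inside its listed start in both clones. The gene spans chr18:70289045-70330199 on the plus strand. The fold was 8.69 in clone 4 (32 fragments, 6.03 to 12.2) and 6.94 in clone 5 (24 fragments, 4.55 to 10.2), with summits 347 and 211 bp downstream of the start. USF2 had no peak within 10 kb in either clone. The promoter of SOCS6 was rich in G and C (82%), against a median of 69.6% over promoters with a reproducible PLAG1-S peak and 58% over all listed promoters.

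SOCS7, its paralogue, known for binding signalling adaptors of the insulin pathway, was the lowest of the 7 members by its strongest PLAG1-S peak in both clones. The gene spans chr17:38351844-38405593. The peak found in both clones had a fold of 4.37 in clone 4 (22 fragments, 2.81 to 6.52) and 4.03 in clone 5 (19 fragments, 2.5 to 6.17), with summits 1 bp apart and about 415 bp inside the low-coordinate end. Clone 5 alone had another peak with a fold of 5.92 (29 fragments, 4.03 to 8.41), 96 bp inside that end. At a −log10 q of at least 10, SOCS7 no longer had a reproducible peak (6.90 in clone 4 and 5.23 in clone 5), and the background fell to 33.0% of coding genes. SOCS2 and SOCS5 kept both factors at that threshold, which 5.85% of coding genes passed for USF2 and 5.75% for a co-bound peak. USF2 had no peak at SOCS7. The lncRNA LOC124903991 lay within 3 kb of these PLAG1-S peaks, so that they cannot be assigned to SOCS7 from position alone.

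SOCS4, the paralogue of SOCS5, was the single member with no peak of either factor, in any of the 4 lists, inside the gene or within 10 kb of it. The gene spans chr14:55027236-55049489, and 31.2% of coding genes likewise had no peak within 3 kb in any list. The nearest PLAG1-S peaks lay 53739 bp away in clone 4 and 53730 bp away in clone 5. The nearest USF2 peaks lay 180050 and 362239 bp away. The GC content of the SOCS4 promoter printed above was 70%, close to the median of promoters with a reproducible PLAG1-S peak, and its body lies 136 bp from that of WDHD1, which starts there on the other strand. The lists hold called peaks only, and the fewest fragments at any called summit was 11 in each list, so that weaker binding at SOCS4 was not detectable here.

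Ordered by the deposited fold of the strongest PLAG1-S peak in clone 4, the members ran SOCS2, SOCS5, SOCS1, CISH, SOCS6, SOCS3 and SOCS7. Neighbours in this order had overlapping intervals in all cases but one, since the interval of SOCS5 (31.7 to 44.0) lay wholly above that of SOCS1 (11.2 to 18.3). In clone 5 the order of the first 4 members was the same, and SOCS3, SOCS6 and SOCS7 followed with overlapping intervals. Without the added 1, SOCS5 came before SOCS2 in clone 4, as given above, and SOCS6 before SOCS3 in clone 5 (9.23 against 9.14). Of the paralogue pairs, SOCS2 and CISH, both STAT5 targets, differed with no overlap of intervals in either clone (39.9 against 12.1 and 37.7 against 10.1). SOCS1 and SOCS3 differed with no overlap in clone 4 (14.4 against 7.25), while in clone 5 their intervals overlapped (12.0 against 7.19). SOCS6 and SOCS7 overlapped in both clones.

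In the other clone, 26 of the 31 PLAG1-S peaks of the family (83.9%) met a peak of the same factor, as did 64.0% of all 67463 PLAG1-S peaks. For USF2 it was 4 of 7 peaks (57.1%), against 35.3% of all 13707. The number of PLAG1-S peaks per member ran from 0 to 5 in clone 4 and from 0 to 4 in clone 5, SOCS4 being the lowest and SOCS3 the highest in both. SOCS2 had 3 in both clones, while SOCS1 had 3 and 1, and SOCS5 had 1 and 2.

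Between the clones, 8 of the 12 shared PLAG1-S peaks of the family and both shared USF2 peaks had a lower fold in clone 5. The median ratio of clone 5 to clone 4 was 0.887 over all 21469 shared PLAG1-S peaks and 0.824 over all 2409 shared USF2 peaks. The ratio was below 0.991 at 65.1% of these PLAG1-S peaks, and the upper quartile over these USF2 peaks was 0.969. The PLAG1-S count of the family is near that share, and nothing particular to the family is drawn from it. For PLAG1-S the ratio was 0.943 at the main SOCS2 peak, 0.858 at SOCS5, 0.833 at the stronger SOCS1 peak and 0.832 at CISH. The 4 shared peaks with a higher fold in clone 5 were the second SOCS1 peak (1.46), the low-coordinate SOCS2 flank (1.10) and 2 weak SOCS3 peaks (1.17 and 1.04). At the second SOCS1 peak the clone 5 fold is that of the single wide peak, whose summit lay 726 bp away. That same clone 5 fold entered the ratio of the stronger SOCS1 peak, so 1.46 does not compare the same site. For USF2 the ratio was 0.753 at SOCS2 and 0.638 at SOCS5. Over the strongest 10% of shared USF2 peaks by clone 4 fold the median was 0.731. That choice by itself favours low ratios, since the clone 4 fold is the divisor. SOCS5 was below that median and below 0.659, the lower quartile of the same set. Its USF2 intervals still overlapped at their edges, so no difference between the clones is drawn from this. Library and clone cannot be told apart here, since each clone gave a single library per factor.

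**Figure D3:**
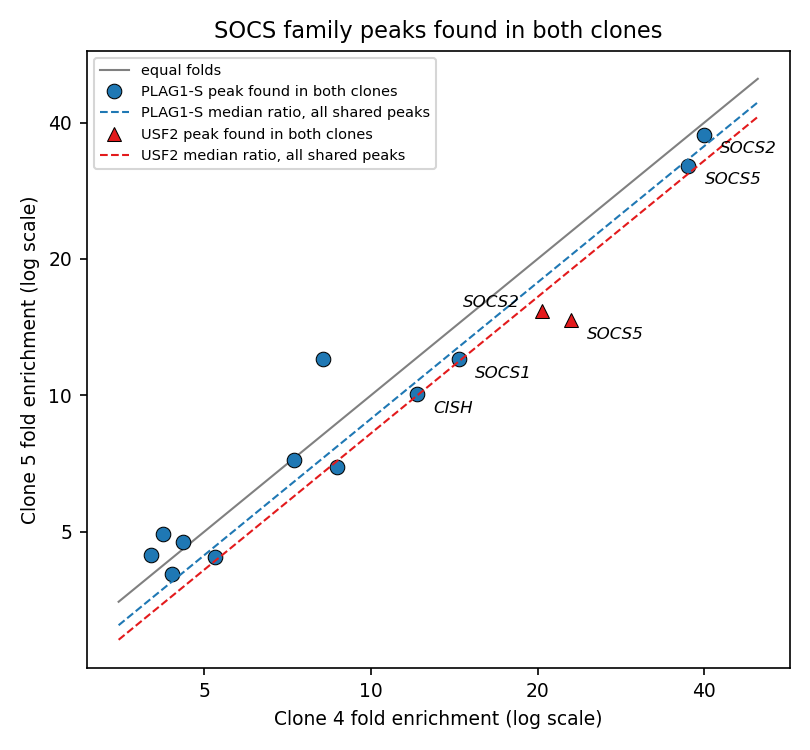
Clone 5 against clone 4 fold enrichment (both log scales) of SOCS family peaks found in both clones, as circles for PLAG1-S and triangles for USF2, with dashed lines at the median ratios of all shared peaks (0.887 and 0.824) and a grey line at equal folds. Both USF2 points lie under their dashed line, and the circle far above the grey line is the second SOCS1 peak of clone 4, which meets the single wide clone 5 peak.

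The genes that act with SOCS proteins were read in lists of their own, and 42 of these 72 genes had a reproducible PLAG1-S peak and 9 a co-bound peak, against the 52.0% and 9.98% of coding genes given above. Among the genes listed as other brakes on the pathway, 10 of 10 had a reproducible PLAG1-S peak and 3 a co-bound one. The list held the phosphatases PTPN1, PTPN2, PTPN6 and PTPN11, PIAS proteins, SH2B3 and CBL. Their role as brakes is the label of the list and was not tested. Of the STATs 5 of 7 had a PLAG1-S peak and 2 a co-bound one, and of the Janus kinases 3 of 4 and 0 of 4. Of the cytokine receptor chains 9 of 23 had a PLAG1-S peak and 1 a co-bound one, a share below the background. The ligase partners of the SOCS box had 2 of 4 and 1 of 4, and other proteins with a SOCS box had 13 of 24 and 2 of 24. These lists are small, and no test was made on them.

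**Figure D4:**
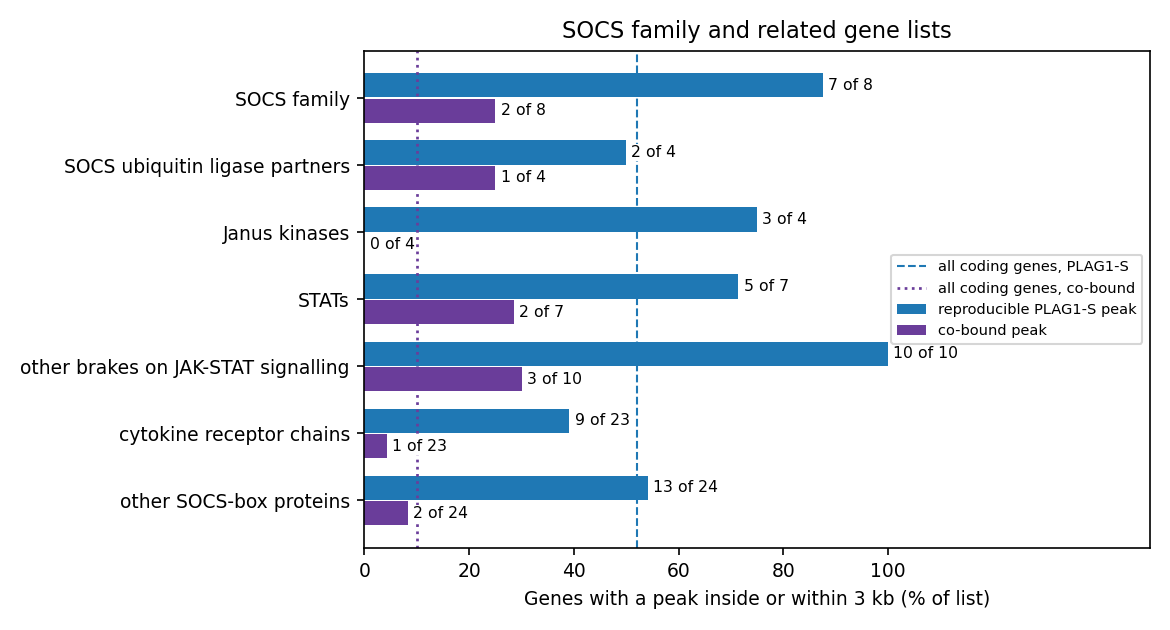
Share of each gene list (%) with a reproducible PLAG1-S peak (blue) or a co-bound peak (purple) inside or within 3 kb, with counts at the bars, and the shares of all coding genes, 52.0% and 9.98%, as dashed and dotted lines. The list of other brakes has a PLAG1-S peak at all 10 genes, and the cytokine receptor chains lie under both lines.

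The co-bound genes of these lists had peaks from weak to as strong as those of SOCS2 and SOCS5. CUL5, the cullin that holds the SOCS-box ligase together, had a clone 4 fold of 38.9 for PLAG1-S and 17.4 for USF2 at chr11:108008712-108009383. PIAS4, a SUMO ligase that restrains STATs, had 36.5 and 16.7 at chr19:4007121-4008130. For PLAG1-S, CUL5 lay between SOCS2 (39.9) and SOCS5 (37.5), and PIAS4 lay just below SOCS5. A single peak at chr17:42312126-42313349, with folds of 28.4 and 9.90, lay in reach of both STAT3 and STAT5A, which are neighbours, and was counted for each. IL2RB, a receptor chain of interleukin-2, had 25.3 and 6.05, WSB2, a SOCS-box protein, had 21.1 and 8.88, and PIAS2 had 18.2 and 6.84. SH2B3, an adaptor that restrains JAK2, had 13.6 and 7.72, and SPSB2, a SOCS-box protein, had 6.55 and 5.63. These are folds of the co-bound peaks, and SH2B3 and SPSB2 each had a stronger clone 4 PLAG1-S peak (14.3 and 7.64). Other genes near the peaks of these lists were not read, so the peaks are not assigned to the named genes. Binding alone was measured, and no expression of any of these genes was analysed here.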

How the data were processed

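ChIP-seq peaks of PLAG1-S and USF2 from 2 clones of K562 cells (4 lists) were used. The submitters' processing notes name cutadapt, HISAT2 2.0.4, SAMtools, MACS2, bedtools and HOMER. The MACS2 version is not given in the sources used here. Peak calling by the authors was done per immunoprecipitated library on hg38, against merged inputs that all lists share. The deposited lists hold a score, which was 10 times the −log10 q rounded down in 81168 of 81170 peaks, a fold enrichment at the summit, and −log10 p-values and −log10 q-values. The PLAG1-S lists end at q-values of 0.0099 and 0.0097, and the USF2 lists at 0.049 and 0.048.

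The number of whole fragments at a summit, and its local background, were solved from the deposited fold with −log10 p under a Poisson model (tolerance 0.001), which gave whole fragments for 100% of peaks. On 2000 summits simulated from the clone 4 PLAG1-S list of 37574 peaks, 100% were recovered. Intervals are exact Poisson 95% intervals on those fragments with the background held fixed. The lists held 37574 and 29889 PLAG1-S peaks and 9338 and 4369 USF2 peaks, with a median of 21 to 24 fragments at the summit.

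Genes came from the RefSeq table without strand, and starts and promoter sequences (250 bp before to 50 bp after the start) from a RefSeq table that listed 5 of the 8 members. Counts beside the background, and no tests, were used. Clone pairs the samples, since libraries with the same number come from the same cell line. All 8 members are named, with the co-bound genes of the pathway lists and the neighbours within 3 kb of a member's peak. Members and lists were chosen with earlier results of these data known. Alternatives were a minimum −log10 q of 10, peaks of either clone, 50% reciprocal overlap, other windows, listed starts, each clone alone, the clone as a replicate block, and folds without the added 1. Python 3.11.15, numpy 2.4.6, scipy 1.17.1, pandas 2.3.3 and matplotlib 3.10.9 were used.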

Additional observations from a re-analysis of the deposited data

How the results depend on the processing

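The count of 7 members with PLAG1-S was 6 at a −log10 q of at least 10, without SOCS7, and 4 within 1 kb of a listed start, where by construction at most 5 members could count. The counts of 2 members with USF2 and 2 co-bound members both rose to 4 in the union of the clones, with SOCS1 and SOCS3 added from clone 4, and both fell to 0 at listed starts, where SOCS2 and SOCS5 are not listed. Leaving out a clone gave 7 for PLAG1-S, and 2 to 4 for USF2 and for co-bound members, with 4 without clone 5. With clone taken as replicate block, the paired count of co-bound members was 2 within both clones and 3 as the mean over clones. A 10 kb window gave 3 members with USF2 and 3 co-bound, CISH being added through the site at MAPKAPK3. Shares of all coding genes were not computed for the union, listed starts, the 10 kb window or co-bound peaks of a single clone. Counts at these settings therefore stand without a background, and nothing about the family is drawn from them. Of the settings tried, 10 of 11 for PLAG1-S, 8 of 11 for USF2 and 12 of 15 for co-bound members stayed within 1.5 times the counts given. Folds without the added 1 were 1.17 to 1.35 times as large over 20 strongest peaks, which turned the order of SOCS2 and SOCS5 in 2 lists (clone 4 PLAG1-S and clone 5 USF2) and of SOCS3 and SOCS6 in the clone 5 PLAG1-S list. No called summit had fewer than 11 fragments, so that binding below this depth is missing from all counts. Sites with more fragments may be missing too, since calling also depends on the local background.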
